A study of Mus musculus with 9 samples.

Results

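The response shared by 2 inhibitors of nuclear import was measured in HL-1, an immortalised cell line derived from mouse atrial muscle and grown in Claycomb Medium. The 3 libraries of cells given 5 µM ivermectin and the 3 of cells given 10 µM importazole were joined into 1 treated group of 6, and this group was set against the 3 vehicle libraries (0.1% DMSO), so all 9 libraries of the series were used. All exposures lasted 24 h. Ivermectin is an antiparasitic drug that also inhibits importin α/β, importazole is an inhibitor of importin-β, and the compounds are not structural relatives. The labels state no DMSO content for either compound group. Nor do they name separate cultures as the source of the libraries, so p-values measure only the spread between these libraries, which may be technical. A cell line of this kind, at 1 time and 1 dose of each compound, is the extent of the model.

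Importins are the receptors that carry proteins with a nuclear localisation signal through the nuclear pore, and the small GTPase Ran releases the cargo inside the nucleus. ATF4 is a transcription factor whose translation increases when the initiation factor eIF2 is phosphorylated, for example when amino acids run short or unfolded protein accumulates. Its targets include genes for amino acid synthesis, amino acid uptake and the charging of tRNA, together with the regulators Atf5, Ddit3 and Trib3 that act beside it or restrain it.

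Transcript levels are given in FPKM, the deposited unit, in which fragments are divided by transcript length and by the library's mapped total. Changes are differences of log2(FPKM + 1), a scale that shrinks the change of weakly expressed genes. The depth of the libraries is unknown because FPKM does not hold it. Summed FPKM ranged from 365259 to 416748 and 11055 to 11200 genes per library reached 1 FPKM. Correlations of the log2 values across the 11337 genes tested were 0.988 to 0.9901 among vehicle libraries, 0.9841 to 0.9918 among libraries of 1 compound, and 0.9797 to 0.9902 between treated and vehicle libraries, with genes that are not independent replicates. One abundant transcript, Yam1, took 5.86% to 10.43% of the summed FPKM of 7 libraries and was listed at 0 in the other 2, vehicle 2 and ivermectin 3. The cardiomyocyte label was met by the defining transcripts: all 12 identity markers were among the genes tested, and Myl7, the atrial myosin light chain, was at 2689, 2474 and 2362 FPKM in the vehicle libraries.

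The pooled comparison asked which transcripts moved the same way with both inhibitors. Genes of amino acid synthesis, uptake and tRNA charging rose with the regulator Atf4. A smaller set fell, most of it on no gene list, with 5 genes on lists of heart muscle genes. A gene was called when the Benjamini-Hochberg adjusted p of limma's moderated test, over all genes tested, was under 0.05. Of the 11337 genes, 137 (1.21%) were called, 100 of them higher (0.882%) and 37 lower (0.326%). In all 137 the 6 treated libraries lay on 1 side of all 3 vehicle libraries, and these are referred to here as the common response. Separation alone was more frequent: 668 genes (5.89%) had all 6 treated libraries above the vehicle libraries, 323 (2.85%) had them below, and 854 of these genes did not pass the test. At an unadjusted p under 0.05, 1090 genes (9.61%) were higher and 545 (4.81%) lower, the background for the unadjusted counts of single lists.

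The increases were the larger changes. Leaving aside Mir8112, which was listed at 0 in all vehicle libraries, the other 99 genes that rose did so by 0.29 to 1.80 log2 units with a median of 0.55, and 12 of them by 1 unit or more. Genes that fell changed by -0.27 to -0.87 with a median of -0.44, and 0 of them reached 1 unit. Over all genes tested the median change was 0.025, with the 5th and 95th percentiles at -0.22 and 0.28. The split between directions depended on scaling: 89 rose and 58 fell after quantile normalization, and 93 rose and 59 fell after median-of-ratios scaling, which moved the median of all genes to -0.003 and -0.001.

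**Figure D1:**
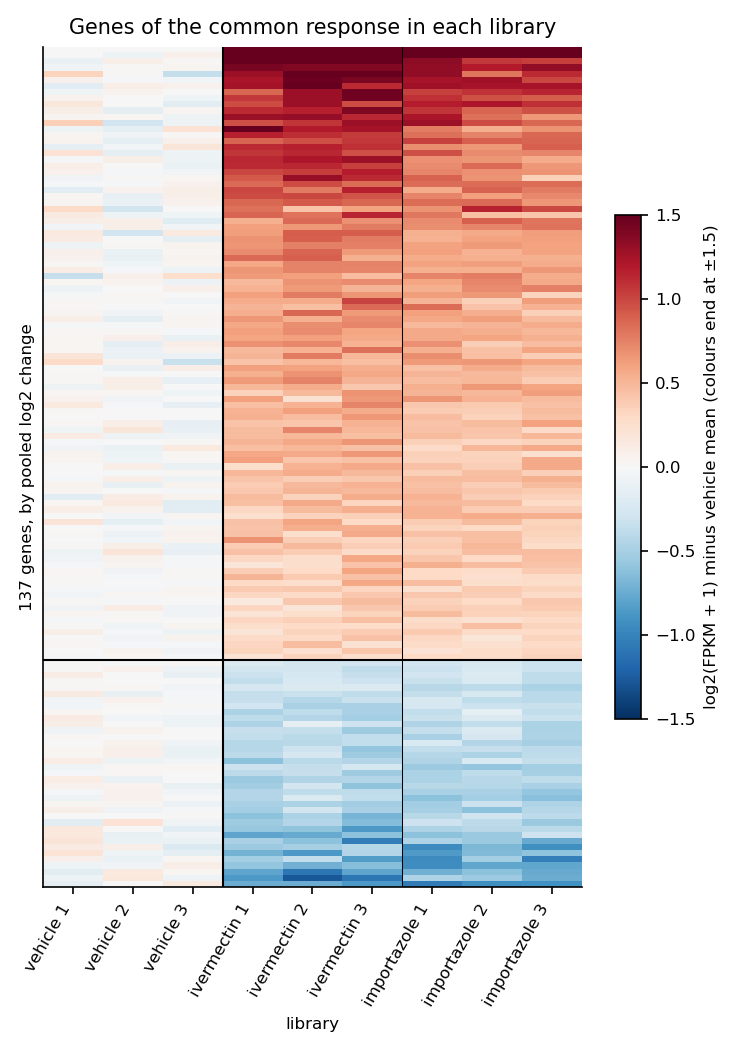
Each row is 1 of the 137 genes of the common response, sorted by pooled log2 change, and each column 1 library. Colour gives log2(FPKM + 1) minus the mean of the 3 vehicle libraries. The 100 genes above the line are higher in all 6 treated libraries, and the 37 below it are lower.

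The pooled test counts a difference between the compounds as spread, so it favours genes that both moved by a like amount. A model with 3 groups, which takes that difference out of the spread, called 191 genes higher and 135 lower, and 168 and 93 of them had separate groups. The number of calls also rested on the 3 vehicle libraries: 59 genes higher and 9 lower were found without vehicle 1, 53 and 10 without vehicle 2, and 54 and 14 without vehicle 3. Of the 137 genes, 44 that rose and 7 that fell were called whichever library was left out. At the edge of the threshold, Pfkfb3 (log2 change 0.36, limma adjusted p = 0.0486) was among the last genes inside and Krtcap2 (0.31, limma adjusted p = 0.0504) the first outside. The narrowest gap between groups was that of Stard10, a lipid transfer protein, whose highest treated library lay 0.079 log2 units below its lowest vehicle library.

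Regulators of the ATF4 response were among the largest increases. Of the 23 tested genes on the list of ATF4 and stress regulators, 11 rose, 0 fell and 12 did not pass. The share of all genes that rose was 0.882%, and the median log2 change over the 23 was 0.45. Trib3, a pseudokinase induced by ATF4 that restrains it in turn (GRCm38 chromosome 2, 152337422 to 152344032, minus strand), stood at 12.2, 11.6 and 13.0 FPKM in the vehicle libraries and at 38.2 to 52.3 FPKM (median 46.2) in the treated ones. Its highest vehicle library was far below its lowest treated library, and the log2 change was 1.80 ± 0.110 (SE, limma adjusted p = 9.94e-06). Atf4 itself (chromosome 15, 80255184 to 80257541, plus strand) was at 82.4, 72.6 and 84.1 FPKM with vehicle and 146 to 167 FPKM (median 152) with the inhibitors. The 6 treated libraries were close together, and the log2 change was 0.95 ± 0.0676 (SE, limma adjusted p = 2.58e-05).

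Atf5, a relative of Atf4 that is translated under the same conditions, rose from 23.9, 21.1 and 18.7 FPKM in the vehicle libraries to 42.5 to 52.8 FPKM (median 47.6), a log2 change of 1.12 ± 0.0909 (SE, limma adjusted p = 7.01e-05). Its exons overlap Nup62 on the opposite strand, and the sources used here do not say whether strand entered the authors' quantification, so its value is uncertain. The same holds for Aldh1l2, Cebpb, Hspe1, Krtcap2 and Atp1b1, and for genes whose overlap is named beside them. Ddit3, which encodes the pro-apoptotic factor CHOP and likewise overlaps Mars, was at 17.3, 18.2 and 18.4 FPKM with vehicle and 23.4 to 45.9 FPKM (median 34.5) with the inhibitors, a log2 change of 0.88 ± 0.162 (SE, limma adjusted p = 0.0223). Nupr1, a small stress-induced chromatin protein, was at 4.67, 3.55 and 2.51 FPKM with vehicle and 6.85 to 14.9 FPKM (median 10.1) in treated cells, with a log2 change of 1.32 ± 0.200 (SE, limma adjusted p = 0.00601). The vehicle libraries of Nupr1 were spread more widely than those of Trib3 or Atf4, without overlap between the groups.

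Sesn2, an inhibitor of mTORC1 signalling under amino acid shortage, changed by 0.65 ± 0.103 (SE, limma adjusted p = 0.00839), and Cebpb, a bZIP factor that can pair with ATF4, by 0.74 ± 0.0944 (SE, limma adjusted p = 0.00163). Herpud1, a component of the machinery that removes misfolded protein from the endoplasmic reticulum, changed by 0.59 ± 0.0739 (SE, limma adjusted p = 0.00145). The other members of this list that rose were Soat2, which esterifies cholesterol, Gdf15 and Fgf21. Among members that did not pass, Cebpg, the usual partner of ATF4, changed by 0.40 ± 0.0884 (SE, limma adjusted p = 0.0547) and Jdp2 by 0.45 ± 0.101 (SE, limma adjusted p = 0.0631). Atf3, often induced beside Ddit3, changed by 0.05 ± 0.104 (SE, limma adjusted p = 0.867), with treated libraries on both sides of the vehicle libraries. The calls of Ddit3 and Soat2 were lost when any 1 of the 3 vehicle libraries was left out (limma adjusted p up to 0.108 and 0.103). That of Sesn2 was lost without vehicle 2 (limma adjusted p = 0.0718). Without vehicle 2 and ivermectin 3, the libraries that list Yam1 at 0, 7 genes of the list were called in place of 11.

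Enzymes that make serine and pass its carbon to folate rose. Of the 20 tested genes of serine synthesis and one-carbon metabolism, 6 rose, against 0.882% of all genes. On this list 0 fell and 14 did not pass, with a median of 0.19 over the 20. Phgdh, which catalyses the committing step from 3-phosphoglycerate, was at 93.6, 93.4 and 99.7 FPKM with vehicle and 171 to 189 FPKM (median 172) with the inhibitors, a log2 change of 0.86 ± 0.0546 (SE, limma adjusted p = 9.94e-06). Its treated libraries were almost level except for ivermectin 2, which stood above them. Psat1, the next enzyme, changed by 0.58 ± 0.0557 (SE, limma adjusted p = 0.000224). Psph, the last of the 3 steps, was at 30.7, 26.3 and 29.9 FPKM with vehicle and 53.8 to 78.1 FPKM (median 63.0) in treated cells, a log2 change of 1.10 ± 0.103 (SE, limma adjusted p = 0.000205), and its exons overlap those of Cct6a on the opposite strand.

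The mitochondrial folate enzymes that take up serine's carbon moved with them. Aldh1l2, which oxidises formyl-tetrahydrofolate, had the smallest p of the common response: it was at 8.91, 9.40 and 9.58 FPKM with vehicle and 22.5 to 26.6 FPKM (median 25.4) with the inhibitors, a log2 change of 1.34 ± 0.0665 (SE, limma adjusted p = 1.89e-06). Mthfd2 was at 81.6, 76.5 and 75.9 FPKM with vehicle and 124 to 178 FPKM (median 144) in treated cells, a log2 change of 0.88 ± 0.110 (SE, limma adjusted p = 0.00145). Shmt2, which splits serine to glycine in mitochondria, changed by 0.68 ± 0.0870 (SE, limma adjusted p = 0.00166).

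Asparagine and proline synthesis showed the same direction. Of 17 tested genes on the list of other amino acid synthesis, 4 rose, against 0.882% of all genes. On this list 0 fell and 13 did not pass, with a median of 0.11 over the 17. Asns, asparagine synthetase (chromosome 6, 7675169 to 7693254, minus strand), was at 55.7, 53.3 and 50.8 FPKM with vehicle and 101 to 146 FPKM (median 113) with the inhibitors. Each treated library was well above each vehicle library, and the log2 change was 1.12 ± 0.106 (SE, limma adjusted p = 0.000205). The 2 enzymes of proline synthesis from glutamate rose together: Aldh18a1 changed by 0.94 ± 0.124 (SE, limma adjusted p = 0.00211). Pycr1, which closes the route, was at 6.57, 4.89 and 5.13 FPKM with vehicle and 9.57 to 13.2 FPKM (median 11.7) with the inhibitors, a log2 change of 0.93 ± 0.115 (SE, limma adjusted p = 0.00143). Gpt2, the mitochondrial alanine transaminase, changed by 0.70 ± 0.122 (SE, limma adjusted p = 0.0172), a call lost without vehicle 2 (limma adjusted p = 0.0962).

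Amino acid transporters rose in part. Of 18 tested, 7 rose (Slc1a4, Slc1a5, Slc3a2, Slc6a9, Slc7a1, Slc38a3 and Slc38a7), 0 fell and 11 did not pass. The share of all genes that rose was 0.882%, and the median over the 18 was 0.32. The call of Slc38a7 was lost in 7 of the fits that left out 1 library (limma adjusted p up to 0.105). Slc7a1, the main carrier of arginine and lysine, was at 18.8, 18.8 and 18.2 FPKM with vehicle and 26.7 to 31.0 FPKM (median 28.3) with the inhibitors, a log2 change of 0.59 ± 0.0615 (SE, limma adjusted p = 0.00042). Slc3a2, the heavy chain shared by several exchangers, was at 59.1, 51.3 and 52.4 FPKM with vehicle and 72.9 to 77.1 FPKM (median 75.9) in treated cells, a log2 change of 0.47 ± 0.0581 (SE, limma adjusted p = 0.00143). Its treated libraries were within a narrow band. Slc6a9, a glycine transporter, changed by 1.07 ± 0.141 (SE, limma adjusted p = 0.00206), and the neutral amino acid carriers Slc1a4 and Slc1a5 by 0.96 ± 0.0992 (SE, limma adjusted p = 0.000396) and 0.54 ± 0.0671 (SE, limma adjusted p = 0.00145). Slc6a6, the taurine transporter, was an exception among those that did not pass: it was at 11.2, 11.5 and 11.1 FPKM with ivermectin and 20.8, 23.8 and 22.0 FPKM with importazole, below and above the vehicle libraries at 16.9, 18.5 and 17.7 FPKM.

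Cytosolic enzymes that charge tRNA with amino acids rose in part. Of the 23 cytosolic aminoacyl-tRNA synthetases, 11 rose (Aars, Cars, Eprs, Gars, Iars, Lars, Mars, Nars, Sars, Tars and Yars) and 0 fell, against 0.882% of all genes higher. A change above 0 was found in 21 of the 23, with a median of 0.20. Of the 17 mitochondrial synthetases, 0 were called in either direction, 2 were higher at an unadjusted p under 0.05, and the median was 0.06. The difference between the lists was not tested. Iars, for isoleucine, was at 18.3, 19.6 and 20.1 FPKM with vehicle and 29.8 to 33.3 FPKM (median 30.9) with the inhibitors, a log2 change of 0.67 ± 0.0630 (SE, limma adjusted p = 0.000205). Nars, for asparagine, changed by 0.64 ± 0.0640 (SE, limma adjusted p = 0.000303), Tars, for threonine, by 0.54 ± 0.0613 (SE, limma adjusted p = 0.000895), and Cars, for cysteine, by 0.83 ± 0.0957 (SE, limma adjusted p = 0.000975). The 11 that passed changed by 0.42 (Gars) to 0.83 (Cars). The call of Mars was lost in 6 of the fits that left out 1 library (limma adjusted p up to 0.191). Those of Gars and Yars were each lost in 2 such fits (up to 0.083 and 0.13), and that of Sars in 1 (0.0551). Xpot, which exports tRNA from the nucleus, was at 8.74, 7.83 and 7.53 FPKM with vehicle and 12.0 to 14.0 FPKM (median 13.2) in treated cells, a log2 change of 0.64 ± 0.0764 (SE, limma adjusted p = 0.00124), and was the 1 called gene among the 16 tested exportins and genes of the Ran cycle. Without vehicle 2 and ivermectin 3, 7 of the cytosolic synthetases were called in place of 11.

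Of the 27 initiation factors, 2 rose, Eif2s2 and Eif3c, against 0.882% of all genes. Eif2s2, the beta subunit of eIF2, was at 70.5, 64.9 and 71.2 FPKM with vehicle and 93.7 to 123 FPKM (median 99.9) with the inhibitors, a log2 change of 0.57 ± 0.0809 (SE, limma adjusted p = 0.00385). Eif3c, a core subunit of eIF3, changed by 0.44 ± 0.0520 (SE, limma adjusted p = 0.00108). Together, the lists of ATF4 regulators, serine, other amino acids, transporters and cytosolic synthetases held 101 tested genes, of which 39 rose and 0 fell in limma's test, compared with 0.882% of all genes higher. At an unadjusted p under 0.05, 50 of the 101 (49.5%) were higher and 0 lower, against 9.61% and 4.81% of all genes. These lists and the comparison were chosen with earlier results of these data known, so the counts describe the response and do not test it. With 1 library left out at a time 32 to 38 of the 101 were called, and 29 with neither vehicle 2 nor ivermectin 3.

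**Figure D2:**
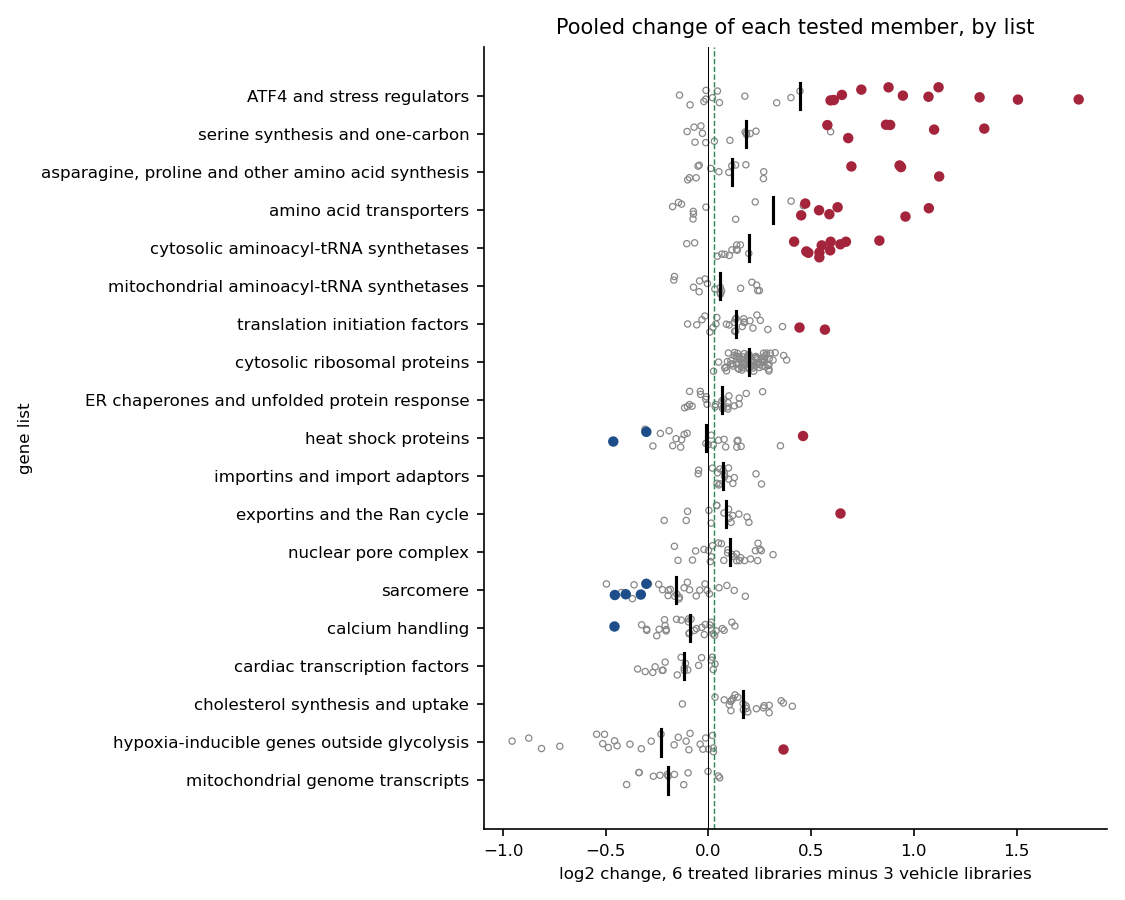
Pooled log2 change of each tested gene, by list. Filled points passed the test (red, higher; blue, lower), open points did not, black bars are list medians, and the dashed line is the median of all genes at 0.025. The filled red points lie mostly in the ATF4, serine, amino acid, transporter and cytosolic synthetase lists.

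**Figure D3:**
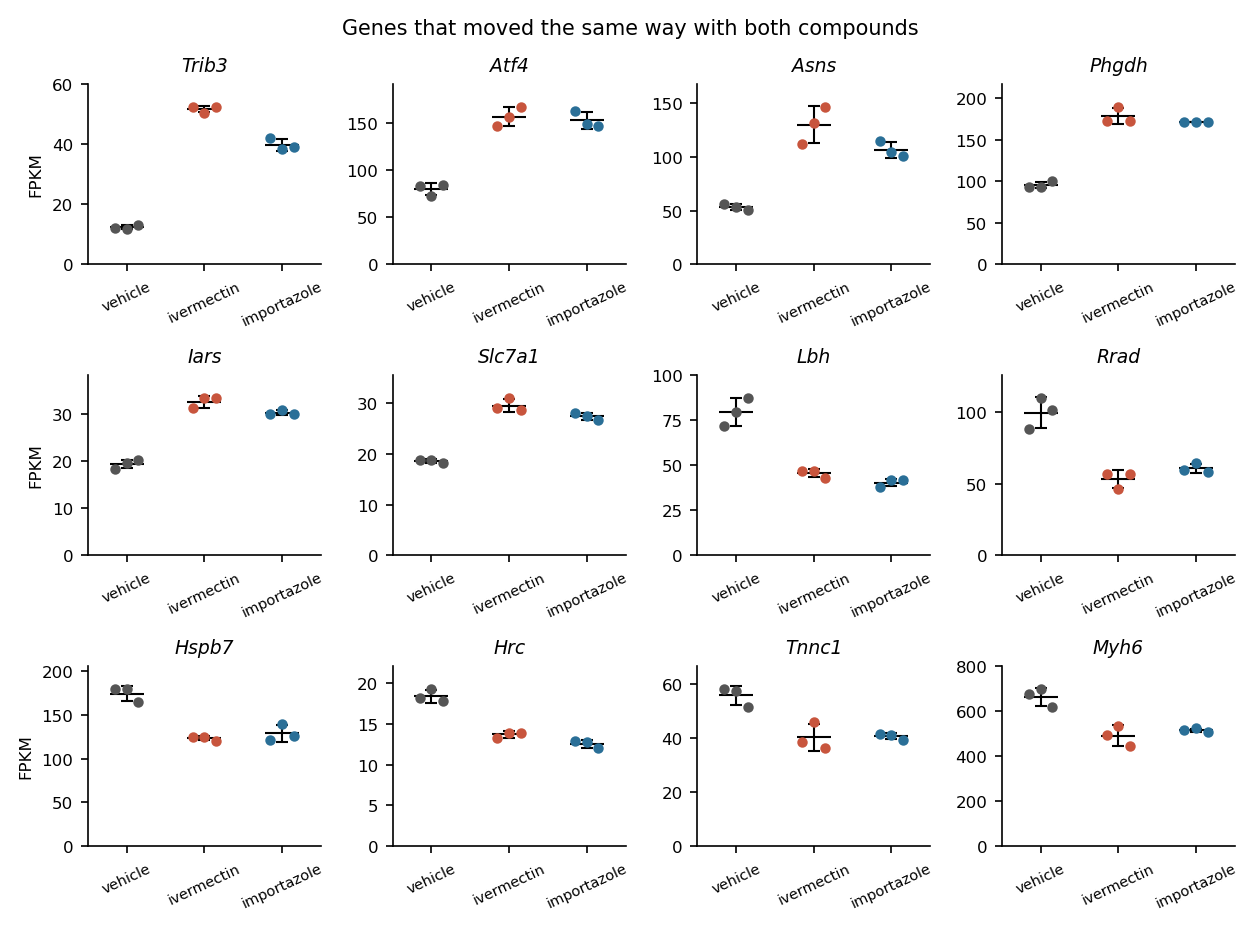
FPKM of 12 genes of the common response in each library, on axes from 0. Coloured points are libraries, and black bars are the mean and SD of each group (n = 3). The first 6 genes are higher and the last 6 lower with both compounds, without overlap, as holds for every gene of the common response.

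The promoters of the genes that rose were examined for the element that ATF4 binds with C/EBP partners, since these genes moved together. The core TGATGNAA was searched on both strands (TTNCATCA on the other) in windows from 250 bases before to 50 bases after each start, taken from RefSeq (GRCm38.p6). Of the 39 genes that rose in the amino acid lists, 32 (82.1%) had 1 window or more, and 12 of their 38 windows (31.6%) held the core. The share of all 32851 windows of that length in the table that held it was 3.97%. The amino acid lists were built around ATF4 and classes of its known targets. Their choice therefore favours a higher share, and the contrast describes these genes without testing a role of ATF4. Of the 37 genes that fell, 30 (81.1%) had a window, and 2 of their 47 windows held it (4.26%). The NF-Y box CCAAT, searched the same way, was in 18 of the 38 windows (47.4%) and in 37.4% of all windows, and the cyclic AMP response element TGACGTCA was in 0 of the 38 and in 1.79% of all windows. Other sets had a window for fewer than 80% of their genes, too few for a check of the set, and their values are given as they stand. Among list members that did not pass (75.8% with a window), 9.68% of windows held the core and 46.8% held CCAAT, the latter share close to that of the members that rose. Among genes that rose outside these lists (73.8%), 6.78% of windows held the core, and among all genes tested (78.2%) 2.03% held the core and 38.6% CCAAT. The 250 bases before the start are shown for 4 genes of different roles in the response, with the core in capitals: a tRNA synthetase (Gars, for glycine, chr6:55037751-55038000, plus strand), a factor of protein removal from the endoplasmic reticulum (Herpud1, chr8:94386179-94386428, plus strand), a mitochondrial enzyme (Pck2, chr14:55540016-55540265, plus strand) and a secreted hormone (Fgf21, chr7:45615491-45615740, minus strand). They were chosen among genes whose window did not reach into the GENCODE model of the gene.
Gars: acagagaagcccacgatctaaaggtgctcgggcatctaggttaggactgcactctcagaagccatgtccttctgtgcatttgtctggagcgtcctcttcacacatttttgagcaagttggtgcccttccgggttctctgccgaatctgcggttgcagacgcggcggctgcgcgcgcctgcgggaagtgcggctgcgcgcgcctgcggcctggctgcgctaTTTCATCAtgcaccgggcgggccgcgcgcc
Herpud1: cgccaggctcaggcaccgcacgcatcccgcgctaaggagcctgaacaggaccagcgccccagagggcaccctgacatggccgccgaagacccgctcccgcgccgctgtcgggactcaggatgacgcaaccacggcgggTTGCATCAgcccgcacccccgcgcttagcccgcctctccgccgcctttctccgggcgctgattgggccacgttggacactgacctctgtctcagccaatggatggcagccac
Pck2: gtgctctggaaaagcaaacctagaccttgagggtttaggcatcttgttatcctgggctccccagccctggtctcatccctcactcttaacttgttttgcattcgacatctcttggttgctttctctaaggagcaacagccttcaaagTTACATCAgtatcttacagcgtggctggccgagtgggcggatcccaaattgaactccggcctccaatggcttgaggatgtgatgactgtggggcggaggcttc
Fgf21: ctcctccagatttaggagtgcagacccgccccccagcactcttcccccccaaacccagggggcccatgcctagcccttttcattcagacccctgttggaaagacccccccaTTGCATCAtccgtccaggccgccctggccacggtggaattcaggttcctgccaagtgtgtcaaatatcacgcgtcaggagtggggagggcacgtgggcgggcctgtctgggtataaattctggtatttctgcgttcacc
The core began 30 bases before the start in Gars, 112 in Herpud1, 103 in Pck2 and 139 in Fgf21. In all 4 the strand shown reads TTNCATCA, the core on the opposite strand. A match describes the letters of the window and is not a measured binding site.

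Secreted factors and mitochondrial proteins were also among the genes that rose. Of these, Gdf15 and Fgf21 are members of the ATF4 list and are counted there. Gdf15, a stress cytokine that acts on appetite, was at 8.32, 4.99 and 5.93 FPKM with vehicle and 12.2 to 16.7 FPKM (median 13.8) with the inhibitors, a log2 change of 1.07 ± 0.137 (SE, limma adjusted p = 0.00166). Fgf21, a hormone of fasting and amino acid stress, was at 0.441, 0.637 and 0.567 FPKM with vehicle and 2.18 to 5.03 FPKM (median 3.52) in treated cells. It was low in all libraries but without overlap between the groups, a log2 change of 1.51 ± 0.207 (SE, limma adjusted p = 0.00266). Angptl6, another secreted factor, changed by 1.14 ± 0.116 (SE, limma adjusted p = 0.000353).

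Cox6a2, the heart and muscle isoform of a cytochrome c oxidase subunit, was among the largest increases and was the 1 gene called among 14 nuclear-encoded subunits of that complex. It was at 52.4, 49.6 and 48.6 FPKM with vehicle and 101 to 141 FPKM (median 121) with the inhibitors, with no overlap, and its log2 change was 1.27 ± 0.0913 (SE, limma adjusted p = 2.58e-05). Pck2, the mitochondrial enzyme that makes phosphoenolpyruvate, was at 18.3, 16.9 and 15.9 FPKM with vehicle and 27.3 to 38.5 FPKM (median 33.6) in treated cells, a log2 change of 0.91 ± 0.112 (SE, limma adjusted p = 0.00143). Slc25a33, a mitochondrial carrier of pyrimidine nucleotides, changed by 0.92 ± 0.163 (SE, limma adjusted p = 0.0176). Hspa9, the main chaperone of the mitochondrial matrix, changed by 0.46 ± 0.0806 (SE, limma adjusted p = 0.0171) and was the 1 heat shock gene that rose of 25 tested. Its matrix partner Hspe1 changed by 0.35 ± 0.0936 (SE, limma adjusted p = 0.116) and did not pass. The calls of Slc25a33 and Hspa9 were lost whichever vehicle library was left out (limma adjusted p up to 0.103 and 0.0972).

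Of the 100 genes that rose, 49 belonged to no list, among them genes of membranes and lipids. Nceh1, which hydrolyses cholesterol esters, was at 20.7, 22.8 and 20.7 FPKM with vehicle and 33.2 to 38.3 FPKM (median 35.7) in treated cells, a log2 change of 0.72 ± 0.0656 (SE, limma adjusted p = 0.000205). Atp2a3, a calcium pump of the endoplasmic reticulum outside the heart-type isoform, was at 0.626, 0.959 and 0.914 FPKM with vehicle and 2.98 to 4.15 FPKM (median 3.33) with the inhibitors, a log2 change of 1.27 ± 0.101 (SE, limma adjusted p = 6.86e-05). P2rx7, an ATP-gated channel, changed by 0.63 ± 0.0800 (SE, limma adjusted p = 0.00166). Gas5 and Snhg6, non-coding host genes of small nucleolar RNAs, changed by 0.48 ± 0.0648 (SE, limma adjusted p = 0.00225) and 0.60 ± 0.113 (SE, limma adjusted p = 0.0241). Mir8112 was listed at 0 in all 3 vehicle libraries and at 1.91 to 5.05 FPKM in the treated ones, and no fold is given for it. Of genes on a list, Fnip2, a regulator of nutrient sensing at the lysosome on the mTORC1 list, changed by 0.61 ± 0.0814 (SE, limma adjusted p = 0.00217). On the growth-arrest list, Gadd45a, a sensor of DNA damage and stress, changed by 0.99 ± 0.193 (SE, limma adjusted p = 0.0311) and Ccng1, a cyclin induced by p53, by 0.31 ± 0.0655 (SE, limma adjusted p = 0.0486). Calls of 3 of these genes depended on single libraries: that of Snhg6 was lost without vehicle 1, 2 or 3 or importazole 3 (limma adjusted p up to 0.125), that of Gadd45a without any vehicle library, ivermectin 2 or ivermectin 3 (up to 0.172), and that of Ccng1 when any library other than importazole 2 was left out (up to 0.227).

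Ddr2, a collagen receptor used as a fibroblast marker, was at 23.8, 21.8 and 25.5 FPKM with vehicle and 32.5 to 36.8 FPKM (median 35.2) with the inhibitors, a log2 change of 0.54 ± 0.0676 (SE, limma adjusted p = 0.00145). Its groups were apart, though its exons overlap a gene on the opposite strand. The summed level of the 10 fibroblast markers was 23.8 to 27.1 FPKM with vehicle, 37.1 to 39.05 with ivermectin and 34.8 to 37.2 with importazole, and Ddr2 made up most of it. Of the 10, 2 (Ddr2 and Col1a1) were among the genes tested. Col1a1 was at 0.309 to 1.24 FPKM over all libraries and Col3a1 at 0.271 to 0.501 with vehicle and 0.340 to 0.775 in treated cells. The other 7 (Col1a2, Pdgfra, Tcf21, Dcn, Lum, Postn and Thy1) stayed at or below 0.332 FPKM in all libraries.

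Genes of the heart muscle program made up a small part of the group that fell. Of the 37 genes in it, 30 belonged to no list. The lists of sarcomere, calcium handling, channels, cardiac transcription factors and cell identity held 106 tested genes, of which 5 fell and 0 rose in limma's test, against 0.326% of all genes lower. At an unadjusted p under 0.05, 32 of the 106 (30.2%) were lower and 2 higher (1.89%), against 4.81% and 9.61% of all genes. In bulk RNA, fewer cells of a type and less RNA per cell cannot be told apart. Of the 30 sarcomere genes, 4 fell (Actc1, Cryab, Myh6 and Tnnc1), with a median of -0.16 over the 30. In 11 of the 30 all treated libraries were below all vehicle libraries, against 2.85% of all genes. Myh6, the alpha myosin heavy chain of atrial muscle (chromosome 14, 54941921 to 54966927, minus strand), was at 677, 699 and 620.1 FPKM with vehicle and 443 to 537 FPKM (median 511) with the inhibitors, a log2 change of -0.40 ± 0.0684 (SE, limma adjusted p = 0.0138). Tnnc1, the calcium-binding subunit of troponin, was at 58.0, 57.5 and 51.5 FPKM with vehicle and 36.1 to 45.9 FPKM (median 40.3) in treated cells, a log2 change of -0.46 ± 0.0763 (SE, limma adjusted p = 0.0128).

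Actc1, cardiac alpha-actin, changed by -0.33 ± 0.0686 (SE, limma adjusted p = 0.0408) and Cryab, a small heat shock protein of the Z-disc whose exons overlap Hspb2, by -0.30 ± 0.0627 (SE, limma adjusted p = 0.04). Like every gene of the common response, the 4 sarcomere genes had separate groups, with gaps small beside those of the ATF4 targets. Myh7, the slow myosin heavy chain, changed by -0.50 ± 0.110 (SE, limma adjusted p = 0.0553), Tcap, a cap of titin, by -0.36 ± 0.0820 (SE, limma adjusted p = 0.0631), and Myl7 by -0.24 ± 0.0653 (SE, limma adjusted p = 0.119), and these 3 did not pass. On that list 0 genes were called without vehicle 1 or without vehicle 2, and 2 without ivermectin 2, importazole 1 or importazole 3. Quantile normalization raised their number to 7 and median-of-ratios scaling to 9. The summed identity markers were at 7847 to 8957 FPKM with vehicle, 6910 to 7471 with ivermectin and 7509 to 8056 with importazole. Of the 12 markers, 2 (Myh6 and Actc1) were called lower, and 5 had a pooled change above 0. Nppa was at 148 to 174 FPKM with vehicle, 173 to 229 with ivermectin and 238 to 260 with importazole. Gja1 was at 68.0 to 74.4, 71.1 to 74.1 and 80.4 to 94.0 FPKM in the same order. The summed smooth muscle markers, mainly Acta2 and Tagln, were at 1376 to 1436, 1187 to 1306 and 1200 to 1315 FPKM in the same order, while Myh11 stayed at or below 0.119 FPKM. Their part in the muscle decreases was not tested.

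Among the 7 decreases called whichever library was left out were those of Lbh, Rrad, Hspb7, Hrc, Mtus2 and Ptgfrn. Lbh, a transcription cofactor first described in limb bud and heart (chromosome 17, 72918305 to 72941947, plus strand), was the largest: 71.6, 79.5 and 87.2 FPKM with vehicle and 37.8 to 46.7 FPKM (median 42.4) with the inhibitors, a log2 change of -0.87 ± 0.0816 (SE, limma adjusted p = 0.000205). Rrad, a small GTPase that inhibits the L-type calcium channel, was at 88.0, 109.8 and 101 FPKM with vehicle and 46.1 to 64.2 FPKM (median 57.6) in treated cells, a log2 change of -0.80 ± 0.0981 (SE, limma adjusted p = 0.00143). In both genes the highest treated library was well under the lowest vehicle library.

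Hrc, which binds calcium in the sarcoplasmic reticulum, was the 1 called gene of 32 in calcium handling, against 0.326% of all genes called lower. It was at 18.1, 19.3 and 17.8 FPKM with vehicle and 12.0 to 13.9 FPKM (median 13.1) with the inhibitors, a log2 change of -0.46 ± 0.0670 (SE, limma adjusted p = 0.00455). Hspb7, a small heat shock protein of the heart that binds filamin, was at 179, 179 and 164 FPKM with vehicle and 120.5 to 139 FPKM (median 125) in treated cells, a log2 change of -0.46 ± 0.0610 (SE, limma adjusted p = 0.00206). Mtus2, a microtubule-associated protein, changed by -0.45 ± 0.0655 (SE, limma adjusted p = 0.00434), and Ptgfrn, a membrane regulator of prostaglandin receptors, by -0.44 ± 0.0639 (SE, limma adjusted p = 0.00455).

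Other decreases concerned muscle kinases, membrane proteins and signalling, and rested more on single libraries. Dmpk, the kinase whose transcript carries the myotonic dystrophy repeat, was at 32.9, 26.7 and 26.5 FPKM with vehicle and 13.4 to 20.4 FPKM (median 18.6) with the inhibitors, a log2 change of -0.65 ± 0.122 (SE, limma adjusted p = 0.0241). Sema6c, a transmembrane semaphorin, changed by -0.70 ± 0.142 (SE, limma adjusted p = 0.0369), Adamts8, a secreted protease, by -0.48 ± 0.0906 (SE, limma adjusted p = 0.0241), and Fhl1, a LIM protein of muscle, by -0.43 ± 0.0786 (SE, limma adjusted p = 0.0212). Camk2b, a calcium and calmodulin-dependent kinase, was at 4.12, 3.57 and 3.11 FPKM with vehicle and 1.52 to 2.47 FPKM (median 2.21) in treated cells, a log2 change of -0.55 ± 0.116 (SE, limma adjusted p = 0.0432). Atp1b1, the beta subunit of the sodium pump, was at 356, 349 and 348 FPKM with vehicle and 269 to 300.1 FPKM (median 280.2) with the inhibitors, a log2 change of -0.31 ± 0.0549 (SE, limma adjusted p = 0.0181), and Cav1, the scaffold of caveolae, changed by -0.38 ± 0.0717 (SE, limma adjusted p = 0.0241). Each of these 7 calls was lost whichever vehicle library was left out, with the highest limma adjusted p between 0.102 for Atp1b1 and 0.185 for Camk2b. The direction was the same in every such fit. Other decreases whose calls were lost in those fits were those of Haghl (-0.47, exons overlapping Narfl), Sh3kbp1 (-0.46) and Tnni3k (-0.36), a kinase that binds cardiac troponin I. On the side of the increases, Dkk3, a secreted relative of Wnt inhibitors, was at 69.7, 67.0 and 71.1 FPKM with vehicle and 82.5 to 103 FPKM (median 94.4) with the inhibitors, a change of 0.43 ± 0.0754 (SE, limma adjusted p = 0.0176) that was lost whichever vehicle library was left out (limma adjusted p up to 0.113).

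The targets of the 2 compounds and their relatives did not pass at the transcript level. Of 17 importins and import adaptors, 0 were called by limma and 2 were higher at an unadjusted p under 0.05 (11.8%, against 9.61% of all genes), with a median of 0.07. Kpnb1, importin-β, was at 81.6, 75.2 and 71.2 FPKM with vehicle and 72.9 to 90.1 FPKM (median 81.5) with the inhibitors, and the groups overlapped. Its log2 change was 0.10 ± 0.0724 (SE, limma adjusted p = 0.571), with a 95% interval of -0.06 to 0.26. The importin-α genes changed by 0.06 (Kpna1), 0.13 (Kpna2), 0.26 (Kpna3), 0.10 (Kpna4) and -0.05 (Kpna6), with limma adjusted p from 0.254 to 0.794. The 95% interval of Kpna3 was 0.05 to 0.47. Ran was at 482, 423 and 322 FPKM with vehicle and 256 to 498 FPKM (median 445) in treated cells, a wide spread in both groups, with a 95% interval of -0.42 to 0.43 for its log2 change. Ipo7, an importin for ribosomal proteins and histones, had separate groups, at 49.2, 50.3 and 52.5 FPKM and 56.3 to 63.8 FPKM (median 60.2), with a change of 0.23 ± 0.0577 (SE, limma adjusted p = 0.0924). Of 28 nuclear pore genes 0 were called and 8 were higher at an unadjusted p under 0.05 (28.6%, against 9.61% of all genes), with a median of 0.10.

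Of the 77 cytosolic ribosomal protein genes tested, 0 were called by limma. All 77 had a pooled change above 0, with a median of 0.20. At an unadjusted p under 0.05, 46 of the 77 were higher (59.7%, against 9.61% of all genes). In 26 of the 77 (33.8%) all treated libraries were above all vehicle libraries, against 5.89% of all genes. The mean over the 77 genes relative to vehicle was 0.082, -0.021 and -0.062 in the vehicle libraries, 0.064, 0.147 and 0.349 in the ivermectin libraries, and 0.221, 0.198 and 0.224 in the importazole libraries. The groups overlapped, since ivermectin 1 was below vehicle 1, and ivermectin 3 stood highest. After quantile normalization or median-of-ratios scaling 76 of 77 were above 0, with medians of 0.151 and 0.167. The separated number rose to 54 without vehicle 1 and to 45 without ivermectin 1. Pabpc1, the poly(A)-binding protein that shares their translational control, changed by 0.34 ± 0.0696 (SE, limma adjusted p = 0.0359) and Odc1, which makes putrescine, by 0.29 ± 0.0534 (SE, limma adjusted p = 0.0222), calls that were lost whichever vehicle library was left out (limma adjusted p up to 0.177 and 0.12).

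Several stress programs near the ATF4 response gave 0 calls in limma's test. Of 25 genes of endoplasmic reticulum chaperones and the unfolded protein response, 0 passed and 2 were higher at an unadjusted p under 0.05, with a median of 0.07: Hspa5, the chaperone BiP, was at 372, 387 and 357 FPKM with vehicle and 323 to 367 FPKM (median 348) with the inhibitors, a change of -0.10 ± 0.0562 (SE, limma adjusted p = 0.434). Atf6, a sensor of the same response, had separate groups and a change of 0.26 ± 0.0595 (SE, limma adjusted p = 0.0631). Herpud1, which acts in the removal of misfolded protein, and Ddit3 were called but are counted on the ATF4 list and not on this one. Of 22 NRF2 targets 0 were called and 3 were higher at an unadjusted p under 0.05, with a median of 0.02. Of 31 DNA replication genes and 27 mitosis genes 0 were called, and 3 of each were lower at an unadjusted p under 0.05. Of the 50 lists in all, 31 held 0 called genes. A p that misses the threshold does not show that these genes were unaltered.

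Within the common response the compounds differed in 8 of the 137 genes by the direct contrast of ivermectin with importazole, which called 3.42% of all genes at these doses. In all 8 the ivermectin level was the higher: Trib3, Fgf21, Gadd45a, Slc25a33, Pck2, Mthfd2, Hspa9 and Mknk1. Trib3 was at 52.2, 50.4 and 52.3 FPKM with ivermectin and at 42.0, 38.2 and 39.1 FPKM with importazole, and the log2 difference was 0.37 ± 0.0657 (SE, limma adjusted p = 0.0117). Gadd45a was at 21.6, 17.1 and 17.9 FPKM and 12.5, 10.6 and 11.6 FPKM in the same order, a difference of 0.66 ± 0.116 (SE, limma adjusted p = 0.0111). The libraries of the compounds did not overlap in either gene. Mthfd2 differed by 0.37 ± 0.0629 (SE, limma adjusted p = 0.00849), Pck2 by 0.36 ± 0.0764 (SE, limma adjusted p = 0.0306) and Mknk1, a kinase of the cap-binding factor eIF4E, by 0.29 ± 0.0696 (SE, limma adjusted p = 0.0498). Atf4 gave 0.04 ± 0.0764 (SE, limma adjusted p = 0.861), Phgdh 0.05 ± 0.0582 (SE, limma adjusted p = 0.694), and Slc3a2 0.01 ± 0.0646 (SE, limma adjusted p = 0.966), and none of these 3 differences passed. Of the 37 genes that fell, 0 differed between the compounds in limma's test, and 8 had an unadjusted p under 0.05 (5 higher and 3 lower with ivermectin). The share of all genes at that unadjusted threshold was not computed for this contrast, so the 8 cannot be read against a background.

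**Figure D4:**
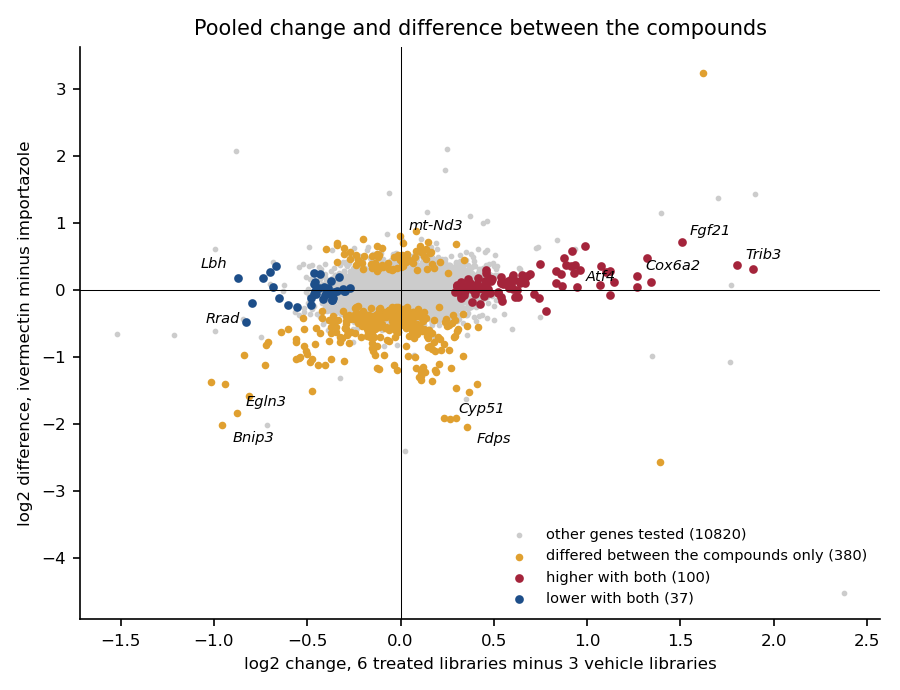
Each point is 1 of the 11337 genes tested, with the pooled log2 change on the horizontal axis and the log2 difference between ivermectin and importazole on the vertical axis. Red and blue points are the common response (100 and 37 genes), which includes the 8 that also differed between the compounds, and orange points are the 380 other genes that differed between the compounds. The red and blue points lie within 0.72 of 0 on the vertical axis, where Fgf21 is the furthest from it. The pooled test itself favours genes with a small difference between the compounds.

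Pooling hid genes on which the compounds acted apart. The direct contrast called 388 genes, 307 of them lower with ivermectin (2.71%) and 81 higher (0.714%). Of 23 cholesterol synthesis and uptake genes, 22 had a pooled change above 0 and 0 were called in the pooled test (0 also at an unadjusted p under 0.05, and 5 in the 3-group model), while 21 were lower with ivermectin than with importazole. Fdps, which makes farnesyl diphosphate, was at 69.1, 69.3 and 66.2 FPKM with vehicle, 39.4, 42.7 and 45.9 with ivermectin and 183, 174 and 179 with importazole. Its pooled change was 0.35 ± 0.644 (SE, limma adjusted p = 0.856), with the compounds on opposite sides of vehicle, and their difference was -2.04 ± 0.0646 (SE, limma adjusted p = 6.37e-08). Cyp51, a sterol demethylase whose exons overlap Akap9, was at 63.0, 67.1 and 66.0 FPKM with vehicle, 34.9, 42.7 and 42.8 with ivermectin and 155, 145 and 165 with importazole, a difference of -1.93 ± 0.0843 (SE, limma adjusted p = 3.35e-07).

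Hypoxia-inducible genes and the mitochondrial genome were apart in other ways. Of 27 hypoxia-inducible genes outside glycolysis, 18 were lower with ivermectin than with importazole, and 1, Pfkfb3, was in the common response. Bnip3, a receptor for the removal of mitochondria, was at 43.3, 41.3 and 40.3 FPKM with vehicle, 10.3, 9.30 and 10.2 with ivermectin and 46.4, 41.6 and 41.8 with importazole, a difference of -2.02 ± 0.0700 (SE, limma adjusted p = 8.5e-08). Egln3, an oxygen-sensing hydroxylase, differed by -1.83 ± 0.0687 (SE, limma adjusted p = 8.5e-08). In both genes the importazole libraries were level with vehicle. Of 13 transcripts of the mitochondrial genome, 11 were higher with ivermectin than with importazole. The median change from vehicle over the 13 was 0.06 with ivermectin and -0.45 with importazole. Among them, mt-Nd3, a complex I subunit, was at 129, 132 and 133 FPKM with vehicle, 158, 159.8 and 207 with ivermectin and 108, 92.7 and 97.1 with importazole. Its difference between the compounds was 0.80 ± 0.0994 (SE, limma adjusted p = 0.00103). Ddit4, an inhibitor of mTORC1 on the ATF4 list, belonged to this kind: it was at 13.4, 14.1 and 12.9 FPKM with vehicle, 9.70, 9.22 and 7.29 with ivermectin and 19.8, 17.9 and 16.7 with importazole, a difference of -0.98 ± 0.103 (SE, limma adjusted p = 0.000331).

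**Figure D5:**
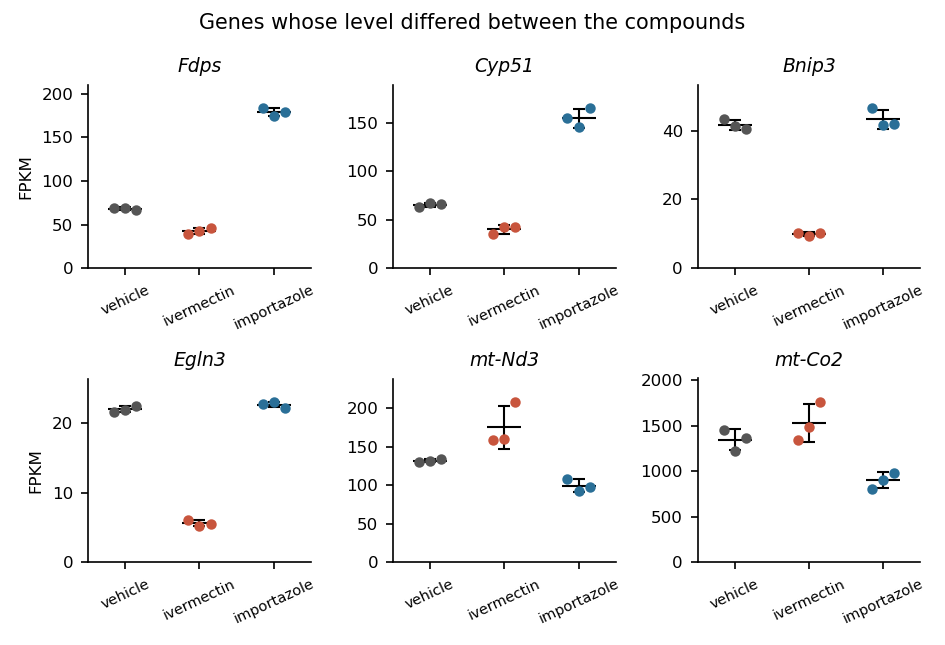
FPKM of 6 genes that differed between ivermectin and importazole in each library, on axes from 0. Points are libraries and black bars the mean and SD of each group (n = 3). Fdps and Cyp51 lie on opposite sides of vehicle with the compounds, Bnip3 and Egln3 are low with ivermectin alone, and mt-Nd3 and mt-Co2 are lowest with importazole.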

How the data were processed

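Poly(A) RNA of HL-1 cells was sequenced on the Ion Proton system, per the labels' protocols, as 9 libraries in 3 groups of 3. The deposited unit is FPKM per gene symbol, per the file headers. Tools named in the submitters' processing notes, without versions, are STAR, Bowtie2, Bowtie and Cufflinks, with the builds mm10 and GRCm38. Neither annotation nor strand is stated there.

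Values of 48 repeated symbols were summed, which left 25175 symbols. Genes that reached 1 FPKM in 3 libraries or more were tested as log2(FPKM + 1) with limma 3.58.1 (R 4.3.3, trend and robust moderation, two-sided): 6 treated libraries against 3 vehicle libraries, and a 3-group fit for the difference between the compounds. The procedure was tested on simulated data. Gene locations are from GENCODE M21 (GRCm38), and promoters from RefSeq. Figures used matplotlib 3.10.9.

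The comparison, the 50 gene lists and the members were chosen with earlier results of these data known. Genes named were the 15 largest increases and 15 largest decreases of the common response with a mean of at least 5 FPKM (no predicted genes, small RNAs or ribosomal pseudogenes), up to 4 members with the smallest p of each list with at least 2 called, 7 import genes, and up to 3 members of lists on which the compounds differed in at least 5. The others were chosen after their values were seen: Aars, Angptl6, Atf3, Atf6, Atp1b1, Atp2a3, Camk2b, Cav1, Cebpb, Cebpg, Ddit3, Ddit4, Ddr2, Gars, Gas5, Hspa5, Hspe1, Ipo7, Jdp2, Krtcap2, Mir8112, Mknk1, Mthfd2, Myh7, Myl7, Nceh1, Ntn1, Odc1, P2rx7, Pabpc1, Pck2, Pfkfb3, Shmt2, Slc6a6, Snhg6, Stard10, Tcap, Tnni3k and Xpot. Some genes the rule picks are not reported here. Alternatives were other pseudocounts, filters, scalings, models, thresholds, a replicate block and leaving out libraries.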

Additional observations from a re-analysis of the deposited data

Results flagged for a closer look

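Among the 6 treated libraries, 1 value stood far from the other 5 in 3 of the 116 genes checked, judged by its gap to the nearest library as a share of the range (critical value 0.625). Chance flags about 1 in 20 groups of this size. Phgdh was highest in ivermectin 2 with a share of 0.887, Hspb7 in importazole 2 with 0.707, and Ntn1, a guidance cue that fell by 0.37 on the log2 scale, in importazole 2 with 0.637.

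The direct contrast found a difference between ivermectin and importazole in 28 of those 116 genes, each past an adjusted p of 0.05 in limma. Many of the 28 were among the 116 because of their small p in this same contrast, or were chosen after their values were seen. The count therefore does not measure how often the compounds differed. Over all genes tested the contrast called 3.42%. Differences are given as log2 ivermectin minus importazole. In the common response they were 0.37 for Trib3, 0.66 for Gadd45a, 0.58 for Slc25a33, 0.25 for Hspa9, 0.72 for Fgf21, 0.36 for Pck2, 0.37 for Mthfd2 and 0.29 for Mknk1.

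Outside it, sterol and fatty acid genes stood lower in ivermectin than in importazole libraries: the difference was -2.04 for Fdps, -1.93 for Cyp51, -1.52 for Insig1, -0.90 for Acly, -0.73 for Acss2 and -0.69 for Scd2. So were genes of glucose use and hypoxia, with -2.02 for Bnip3, -1.83 for Egln3, -1.58 for the lactate carrier Slc16a3, -1.19 for Aldoc, -1.03 for the glucose carrier Slc2a1 and -0.59 for Pgk1. Ddit4 (-0.98) and Slc6a6 (-0.92) were also lower with ivermectin. The mitochondrial transcripts went the other way, at 0.80 for mt-Nd3, 0.76 for mt-Co2 and 0.67 for mt-Atp6. Of the 30 sarcomere genes tested, 5 were lower and 1 higher with ivermectin than with importazole. Among these were Synpo2l at -1.03, Mybpc3 at -0.52 and Myom1 at 0.34, whose exons overlap Myl12a on the opposite strand.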

How the results depend on the processing

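Counts are higher and then lower in the common response, 100 and 37 as reported. They were 54 and 13 with no filter on low values, 89 and 58 with quantile normalization, 93 and 59 with median-of-ratios scaling, and 52 and 8 at an adjusted p under 0.01. The 3-group model called 191 and 135 genes, 168 and 93 of them with separate groups. With neither vehicle 2 nor ivermectin 3, which list Yam1 at 0, they were 47 and 11. Leaving out 1 library at a time gave 53 to 97 higher and 9 to 32 lower, with 21 lower without ivermectin 2, 19 without importazole 1 and 15 without importazole 3. Of the 137 genes, 42 that rose and 6 that fell passed under every alternative run in which they were tested. Weakly expressed genes were not tested under the filter at 5 FPKM, among them Atp2a3, which is counted here. The pseudocounts and the filter at 5 FPKM moved the counts of the common response by less than 1.5 times.

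The direct contrast of the compounds called 388 genes, 177 with no filter, 150 at an adjusted p under 0.01, 233 with neither vehicle 2 nor ivermectin 3, and 177 to 396 with 1 library left out (216 without ivermectin 1, 244 without ivermectin 2, 213, 177 and 227 without importazole 1, 2 and 3). Pairing of the libraries by replicate number was not evident: same-numbered libraries had deviations correlated at -0.21 to 0.145, 1 of 9 pairs was above 0.1, and 3 of 9 libraries correlated best with their own number. Deviations from means of 3 libraries cannot show that pairing is absent. The highest correlation between libraries of different groups was 0.307, for vehicle 2 with ivermectin 3, which both list Yam1 at 0. With the number as a replicate block the counts were 64 higher and 16 lower, and 257 for the direct contrast.

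The sign of 2 genes that did not pass changed with the setting, and the cause was not tested. The pooled change of Ran was -0.044 with quantile normalization and -0.027 with median-of-ratios scaling. With 1 library left out it ranged from -0.160 to 0.134, and its values below 0 were -0.160 without vehicle 3, -0.032 without ivermectin 3, and -0.058, -0.020 and -0.031 without importazole 1, 2 and 3. That of Ddit4 was 0.053 without ivermectin 3 and 0.084 with neither vehicle 2 nor ivermectin 3. It ranged from -0.212 to 0.053 with 1 library left out. The unknown depth limits genes of low FPKM most, among them Fgf21, Atp2a3 and Camk2b.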
